A study of Mus musculus with 4 samples.

Results

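Xcr1/Clec9a cells of B16 melanoma, chosen on genes that mark conventional type 1 dendritic cells (DC1), numbered 174 of 11649 kept cells in 4 libraries. The other DC1 genes went with the name in the 99 cells that carried both Xcr1 and Clec9a, and less so in the 66 cells with Clec9a alone. They were chosen by their own UMI counts (a UMI is a tag that counts 1 captured transcript), as cells with at least 2 UMIs of Xcr1 and Clec9a together, fewer than 3 of Siglech, fewer than 3 of Fscn1, fewer than 10 of C1qa, C1qb and C1qc together and at most 1 of Cd3d, Cd3e and Cd3g together. These genes fixed the membership, so their levels describe the selection and support nothing else. Wild-type C57BL/6 mice carried subcutaneous tumors of B16-F10, a mouse melanoma line, in a version grown from 1 cell clone that makes the cytoplasmic green fluorescent protein ZsGreen (ZsG) when doxycycline is in the drinking water. Every group shared the tumor line, the doxycycline and the harvest at day 8. Tumor-infiltrating leukocytes (TILs) were sorted into a ZsG-positive and a ZsG-negative gate. The paper states that its CD45 sort took bright cells as ZsG-positive, and that most lymphocytes with ZsG were left in the ZsG-negative gate. T cells were sorted anew for that reason. A ZsG-negative gate therefore need not be free of ZsG, and the gates of the 2 sorts may differ. The 4 libraries were sorted as CD45-positive ZsG-negative, CD45-positive ZsG-positive, TCRβ-positive ZsG-negative and TCRβ-positive ZsG-positive cells. Each gate was 1 library and the sources used here do not give how many animals it pooled, so no test between conditions was possible and every interval printed here is a 95% interval that covers counting error only.

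DC1 develop under the transcription factors IRF8, BATF3 and ID2, and in tumors they are known for taking up dead cell material and presenting its antigens to CD8 T cells on MHC class I, which is called cross-presentation. CLEC9A is their receptor for actin exposed by dying cells, and XCR1 is the receptor for XCL1, a chemokine made by NK cells and CD8 T cells. Cells with Cd209a, a lectin gene of DC2 and of monocyte-derived dendritic cells, were the comparison here. They had at least 3 UMIs of Cd209a, met the same 4 exclusions and were not Xcr1/Clec9a cells.

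The promoters of the 2 genes that chose the cells, and the 2 promoters in which a searched motif was found, are shown to give the regulatory sequence beside the genes. They are the 250 bases before the RefSeq start site, 5′ to 3′ on the gene's strand, in GRCm38.p6. Xcr1 lies on the minus strand (chr9:123862030-123862279) and Clec9a on the plus strand (chr6:129408612-129408861). Tlr11, a receptor for profilin of protozoa, lies on the plus strand (chr14:50357664-50357913), and Ifi205, an interferon-inducible gene, on the minus strand (chr1:174031756-174032005). Capitals mark a match to the IRF motif.
Xcr1: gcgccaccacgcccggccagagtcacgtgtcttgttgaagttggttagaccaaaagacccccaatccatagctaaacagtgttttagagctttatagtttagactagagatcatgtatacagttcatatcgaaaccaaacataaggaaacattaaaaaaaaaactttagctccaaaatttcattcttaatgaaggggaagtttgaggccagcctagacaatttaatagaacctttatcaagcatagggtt
Clec9a: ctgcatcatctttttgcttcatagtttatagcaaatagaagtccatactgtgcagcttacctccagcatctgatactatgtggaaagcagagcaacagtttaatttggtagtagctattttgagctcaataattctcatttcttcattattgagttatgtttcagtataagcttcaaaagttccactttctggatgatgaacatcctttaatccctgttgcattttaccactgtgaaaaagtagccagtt
Tlr11: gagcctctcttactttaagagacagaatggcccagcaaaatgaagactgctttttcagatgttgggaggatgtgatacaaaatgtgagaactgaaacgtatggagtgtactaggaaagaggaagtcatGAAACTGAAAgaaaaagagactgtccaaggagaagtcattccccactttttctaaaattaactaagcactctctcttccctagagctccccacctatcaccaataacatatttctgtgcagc
Ifi205: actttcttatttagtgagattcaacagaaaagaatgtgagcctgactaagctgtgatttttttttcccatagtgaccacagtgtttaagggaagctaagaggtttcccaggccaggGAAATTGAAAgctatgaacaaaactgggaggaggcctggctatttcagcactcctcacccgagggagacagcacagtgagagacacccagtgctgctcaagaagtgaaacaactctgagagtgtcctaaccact
The 3 motifs searched on both strands were AP-1 (TGANTCA), IRF (GAAA and GAAA parted by any 2 bases) and ETS-IRF (GGAA and GAAA parted by any 2 bases), in 20 promoters of 16 of the 20 genes looked up. The set of RefSeq promoters used here held none for Cadm1, Cd24a, Itgae and Rab7b. The IRF motif was in 2 genes, Tlr11 and Ifi205, and the others were in 0. Among all 32851 promoters of this length, 6.75% held AP-1, 2.98% IRF and 2.30% ETS-IRF. A match is a description of letters and no match says nothing of the factor.

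Of 439 kept cells with at least 2 UMIs of Xcr1 and Clec9a, 265 were removed by the exclusions. The C1q limit removed 87 of the 196 candidates of the CD45 ZsG-positive library, and the Siglech limit removed 100 of the 145 candidates of the TCRβ ZsG-positive library, where a cell could fail more than 1 limit. The libraries shared 1 to 6 cell barcodes pair by pair and none belonged to an Xcr1/Clec9a cell. The labels of the TCRβ-sorted libraries contradict each other: library names call the first library ZsG-negative and the label of the joint matrix calls it ZsG-positive. Here the library of 2396 barcodes was taken as ZsG-positive, as the selection rule states, and every TCRβ-sorted difference between ZsG-positive and ZsG-negative cells turns around if the order was the other.

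Xcr1/Clec9a cells were a larger share of the ZsG-positive than of the ZsG-negative cells. In the CD45 sort, 25 of 4699 ZsG-negative cells (0.532%, Clopper-Pearson interval 0.345 to 0.784%) and 103 of 4123 ZsG-positive cells (2.50%, 2.04 to 3.02%) met the rule. In the TCRβ sort, 7 of 948 ZsG-negative cells (0.738%, 0.297 to 1.52%) and 39 of 1879 ZsG-positive cells (2.08%, 1.48 to 2.83%) did. That sort was gated for T cells, and the paper removed cells low in CD3 reads from it. The rule allows at most 1 UMI of the CD3 genes, so these are cells the gate was not set for. Their share there is no measure of their frequency in the tumor, and how they entered the sort was not tested. The ratio of the shares was 4.70 in the CD45 sort (3.01 to 7.59) and 2.81 in the TCRβ sort, where its log2 was 1.49 (0.31 to 2.90), and neither interval reached equal shares. Cd209a cells numbered 58, 96, 5 and 25 in the CD45 ZsG-negative, CD45 ZsG-positive, TCRβ ZsG-negative and TCRβ ZsG-positive libraries, and their share was 1.89 times as high among ZsG-positive cells in the CD45 sort (1.35 to 2.66) and 2.52 times as high in the TCRβ sort (0.949 to 8.44). Xcr1/Clec9a cells made up 30.1% (20.5 to 41.2%) of the 2 kinds together in the CD45 ZsG-negative library and 51.8% (44.6 to 58.9%) in the CD45 ZsG-positive library. Those of the TCRβ sort made up 58.3% (27.7 to 84.8%) and 60.9% (47.9 to 72.9%), a difference within these intervals. Fluorescence set these gates, and depth differed along with them: the median kept cell had 5769 UMIs in the CD45 ZsG-negative and 9928 in the CD45 ZsG-positive library. Cells with at least 3000 UMIs were also thinned to 3000 UMIs, and the rule was applied to the thinned counts. The shares were then 0.115% and 1.17% of those cells, a log2 ratio of 3.34. Thinning makes the minimum harder to reach and the exclusion limits easier to pass. These shares therefore rest on another set of cells and do not settle the part of depth.

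**Figure D1:**
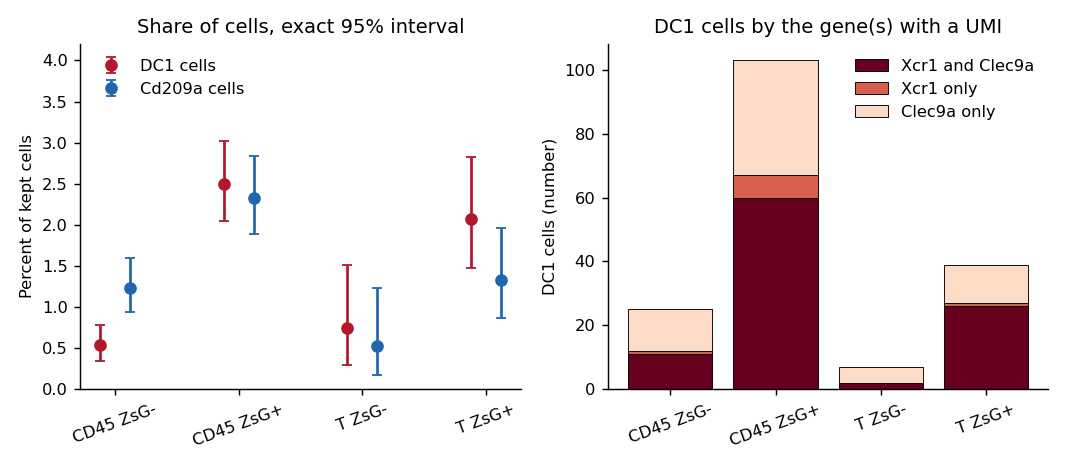
Left, share of kept cells in percent (points, with exact 95% intervals) for Xcr1/Clec9a cells (DC1 in the key, red) and Cd209a cells (blue) in the 4 libraries. Right, number of Xcr1/Clec9a cells by which of the 2 genes had a UMI. Xcr1/Clec9a cells were 0.532 and 0.738% of the ZsG-negative libraries and 2.50 and 2.08% of the ZsG-positive libraries, and 99 of the 174 cells carried both genes.

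Xcr1/Clec9a cells held more UMIs than Cd209a cells in each library. Their median depth was 11081, 13643, 15443 and 15520 UMIs in the CD45 ZsG-negative, CD45 ZsG-positive, TCRβ ZsG-negative and TCRβ ZsG-positive libraries, against 9714, 10291.5, 11454 and 11817 UMIs for Cd209a cells. Their median mitochondrial share was 4.0, 3.16, 2.93 and 2.96% in the same order. In all, 2562333 UMIs lay in the 174 cells, of which 1496483 were in the 103 cells of the CD45 ZsG-positive library.

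The 2 genes of the rule did not mark cells evenly. Both genes had a UMI in 99 cells, Clec9a alone in 66 and Xcr1 alone in 9, and 57 cells were chosen on exactly 2 UMIs while 86 had 5 or more. Another 161 cells had only 1 UMI of the pair and lay just outside. In the CD45 ZsG-positive library the cells just inside, with 2 UMIs, had 481 CPM of Irf8 (CPM counts the UMIs of a gene per 1000000 UMIs summed over the cells) and 3313 of Lyz2, the lysozyme gene of monocytes and macrophages. The 92 cells just outside that met the exclusions and were not Cd209a cells had 590.1 CPM of Irf8 and 6284 of Lyz2, whereas the 54 cells with 5 or more UMIs had 2218 of Irf8 and 875 of Lyz2.

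Other DC1 genes followed the cells that carried both Xcr1 and Clec9a. In the CD45 ZsG-positive library, the 60 cells with both genes had 2218 CPM of Irf8 and the 36 cells with Clec9a alone had 424. Wdfy4, which cross-presentation of cell-associated antigen requires, stood at 388 against 48.0 CPM and Batf3 at 258 against 102 CPM. Tlr3, the endosomal sensor of double-stranded RNA, stood at 116 against 2.09 CPM, and Itgae, which encodes CD103, at 186 against 14.6 CPM. The cells with Clec9a alone carried more of the genes of other myeloid cells: Lyz2 was 3782 against 649 CPM, Apoe 378 against 36.5 CPM, Mgl2 163 against 49.8 CPM and Cd209a 132 against 5.53 CPM. The DC1 label therefore held for the cells with both genes, and it was not borne out to the same extent for the 66 cells with Clec9a alone, which remain members by the rule.

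The same split ran in part along different genes in the other libraries, while Cd209a again lay with Clec9a alone. In the CD45 ZsG-negative library, all 7 Xcr1/Clec9a cells with a UMI of Cd209a carried no UMI of Xcr1. The same held for the 1 such cell of each TCRβ-sorted library. In the CD45 ZsG-negative library, the 13 cells with Clec9a alone had 1489.5 CPM of Irf8 against 2467 CPM in the 11 cells with both genes. There the Clec9a-only cells were high in Tcf4 (433 against 32.0 CPM), the transcription factor of plasmacytoid DC (pDC), in Bst2 (1505 against 467 CPM) and in Plac8 (4324 against 1738 CPM), and Lyz2 was 144 against 492 CPM. In the TCRβ ZsG-positive library, Irf8 was 1149.7 CPM in the 12 Clec9a-only cells and 1984 CPM in the 26 cells with both genes, and Tcf4 was 450.4 against 22.5 CPM. Every main comparison was therefore also made with the cells that carried both genes, a choice made after these values were seen.

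**Figure D2:**
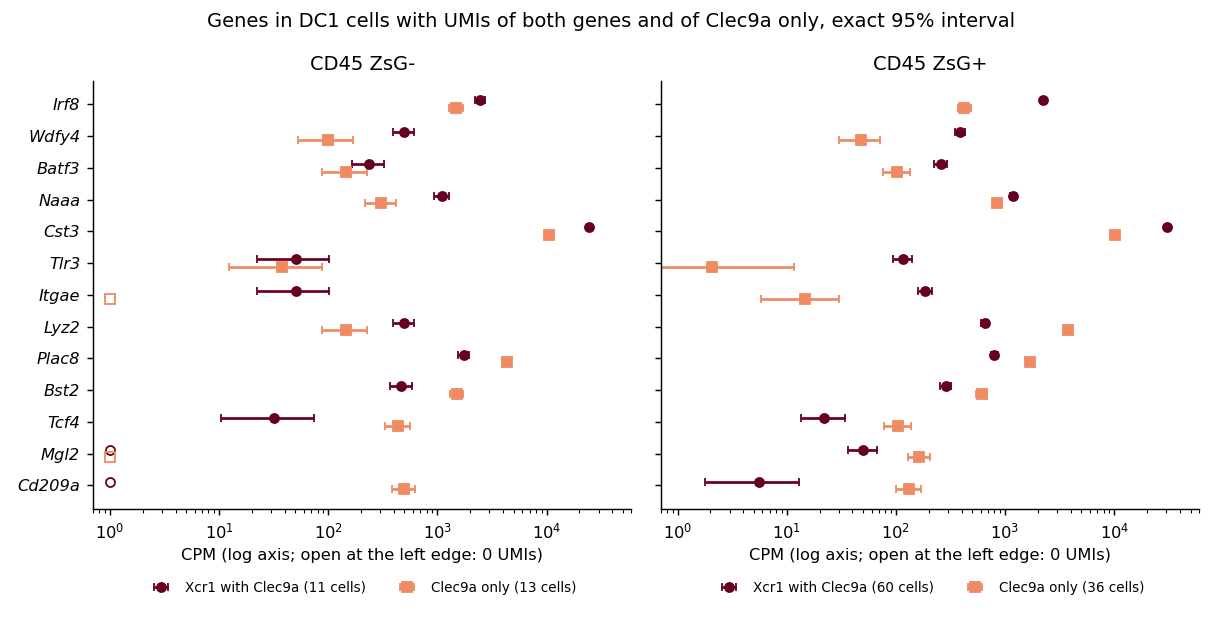
Level in CPM (log axis, open symbols at the left edge for 0 UMIs, bars for exact 95% intervals) of 13 genes in Xcr1/Clec9a cells with both genes and with Clec9a alone, CD45 ZsG-negative (11 and 13 cells) and ZsG-positive (60 and 36 cells). Irf8, Wdfy4 and Batf3 lay higher with both genes in both libraries, while Tcf4 and Bst2 lay higher with Clec9a alone, and Lyz2 changed sides between the libraries (492 against 144 CPM and 649 against 3782 CPM).

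Against Cd209a cells of the same library, Xcr1/Clec9a cells of the CD45 ZsG-positive library were higher in DC1 transcription factors, in Tlr3 and Tlr11 and in cell cycle genes and lower in DC2 genes and in type I interferon response genes, with MHC class I and II genes close to equal. A gene was measured when both groups together held at least 20 UMIs, and it is called higher or lower here when the ratio was at least 2-fold and its exact interval lay beyond equal levels. In the CD45 ZsG-positive library, 103 Xcr1/Clec9a cells were set against 96 Cd209a cells, and 355 of 7522 genes (4.72%) were higher and 375 (4.99%) lower, with a median log2 ratio over all genes of -0.01. Of the 355, 267 had fewer than 20 UMIs in the Cd209a cells, and of the 375, 172 had fewer in the Xcr1/Clec9a cells, so that these were measured only through the group where they were high. Counts of called members are therefore a description to be read beside the same share over all genes. In the TCRβ ZsG-positive library (39 against 25 cells), 296 of 4892 genes (6.05%) were higher and 392 (8.01%) lower, with a median of -0.06. With edgeR's TMM scaling, that TCRβ split was 392 higher and 299 lower, and with median-of-ratios scaling 385 and 304, since these shift the log2 ratios by 0.15 and 0.14. In the CD45 ZsG-negative library (25 against 58 cells), 298 of 4711 genes (6.33%) were higher and 326 (6.92%) lower, and in the TCRβ ZsG-negative library (7 against 5 cells) 86 of 1323 (6.5%) and 88 (6.65%). Of the 355 genes that were higher in the CD45 ZsG-positive library, 194 were measured in the TCRβ ZsG-positive library, and 184 of them (94.8%) had the same sign there, where 45.6% of all measured genes had it. Of the 375 lower genes, 203 were measured and 184 (90.6%) had the same sign there, against 54.4% of all measured genes. In that library 242 of the 296 higher and 206 of the 392 lower genes had fewer than 20 UMIs in the lower group. The minimum can thus favor the same sign, and the shares over all genes are not matched for it.

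DC1 identity genes outside the rule were higher in 13 of 15 measured members, with a median log2 ratio of 2.51, in the CD45 ZsG-positive library. They were higher in 12 of 14 in the TCRβ ZsG-positive library (median 2.86 with genes at 0 UMIs set to their bound), in 9 of 9 in the CD45 ZsG-negative library (2.33) and in 5 of 7 in the TCRβ ZsG-negative library (1.65). In the CD45 ZsG-positive library, 6 of the 13 higher genes had fewer UMIs than the minimum in the Cd209a cells. This was the case for 7 of 12 in the TCRβ ZsG-positive and 1 of 9 in the CD45 ZsG-negative library. In the TCRβ ZsG-negative library it was the case for 4 of 5. Such genes passed the minimum through the Xcr1/Clec9a cells, so these counts are a description only. With only the 60 cells of the CD45 ZsG-positive library that carried both genes, 13 of 15 were again higher, with a median of 2.91. In that comparison 422 of 6894 genes (6.12%) were higher and 675 (9.79%) lower, so that lower calls were more frequent over all genes too. Clnk, Pianp and Tlr12 had too few UMIs to be measured in the CD45 ZsG-positive library.

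The transcription factors led the list. Irf8 stood at 2009, 1567, 1156 and 1768 CPM in the CD45 ZsG-negative, CD45 ZsG-positive, TCRβ ZsG-negative and TCRβ ZsG-positive Xcr1/Clec9a cells, and at 534, 349.7, 363 and 263 CPM in the Cd209a cells. No Cd209a value reached an Xcr1/Clec9a value, and the log2 ratio in the CD45 ZsG-positive library was 2.16 (2.01 to 2.32). Irf8 is not particular to dendritic cells, and NK-like cells of the CD45 ZsG-negative library, taken as cells with at least 2 UMIs of Ncr1, at most 1 of the CD3 genes and membership in neither group, had 1111 CPM. Batf3 stood at 194, 197, 84.6 and 221 CPM in the Xcr1/Clec9a cells and at 68.8, 38.1, 43.5 and 65.1 CPM in the Cd209a cells, and the log2 ratio in the CD45 ZsG-positive library was 2.35 (1.90 to 2.87). Id2, the inhibitor of E proteins that conventional DC require, stood at 949, 689, 752 and 723 CPM against 59.0, 121, 159.5 and 84.9 CPM. The groups did not overlap for these 3 genes across the 4 libraries, though Batf3 rested on 9 UMIs in the 7 TCRβ ZsG-negative cells. How many of all measured genes show no overlap was not counted. Here and for the genes below, a lack of overlap is a description only.

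Genes of antigen handling and sensing followed. Wdfy4 stood at 315, 270.0, 150.4 and 234 CPM in the Xcr1/Clec9a cells against 50.8, 57.2, 58.0 and 99.0 CPM in the Cd209a cells, in the same order of libraries. Tlr3 stood at 43.6, 77.5, 56.4 and 68.1 CPM against 8.19, 9.08, 0 and 2.83 CPM, and the log2 ratio in the CD45 ZsG-positive library was 3.03 (2.16 to 4.19). Both were higher in each Xcr1/Clec9a group than in any Cd209a group. Itgae stood at 26.8, 121, 28.2 and 68.1 CPM against 0, 3.63, 0 and 0 CPM, a log2 ratio of 4.89 (3.68 to 6.95) in the CD45 ZsG-positive library. Cadm1, an adhesion molecule that serves as a DC1 surface marker, stood at 28.7 against 1.82 CPM there, where the Cd209a cells held 2 UMIs (log2 ratio 3.68, 2.04 to 7.07). Gcsam had 77 UMIs in the Xcr1/Clec9a cells and 0 in the Cd209a cells of that library, which is at least 18.9-fold higher when 0 is set to a floor of 3 UMIs per group, and at least 9.09-fold higher in the TCRβ ZsG-positive library. Naaa (1059 against 666 CPM, log2 ratio 0.67) and Ifi205 (471 against 339.7 CPM, 0.47) were the 2 measured members that stayed under 2-fold in the CD45 ZsG-positive library.

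Shares of cells at an equal depth of 5000 UMIs gave the same order. In the CD45 ZsG-positive library, Batf3 had a UMI in 58.8% of 102 thinned Xcr1/Clec9a cells (80.6% unthinned), in 11.7% of Cd209a cells (32.3%) and in 10.0% of NK-like Ncr1 cells (14.1%). Tlr3 had one in 31.4% (50.5%), 3.19% (6.25%) and 0% (6.25%) of these cells, and Itgae in 34.3% (50.5%), 1.06% (2.08%) and 0% (0%). The median depths were 13643, 10291.5 and 4668.5 UMIs, and only 30 of the 64 Ncr1 cells were deep enough to be thinned. The shares of Batf3, Tlr3 and Itgae among Xcr1/Clec9a cells lay above those of the NK-like cells, though NK cells can use Itgae and Tlr3 themselves, so that these shares are no pure measure of free RNA.

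**Figure D3:**
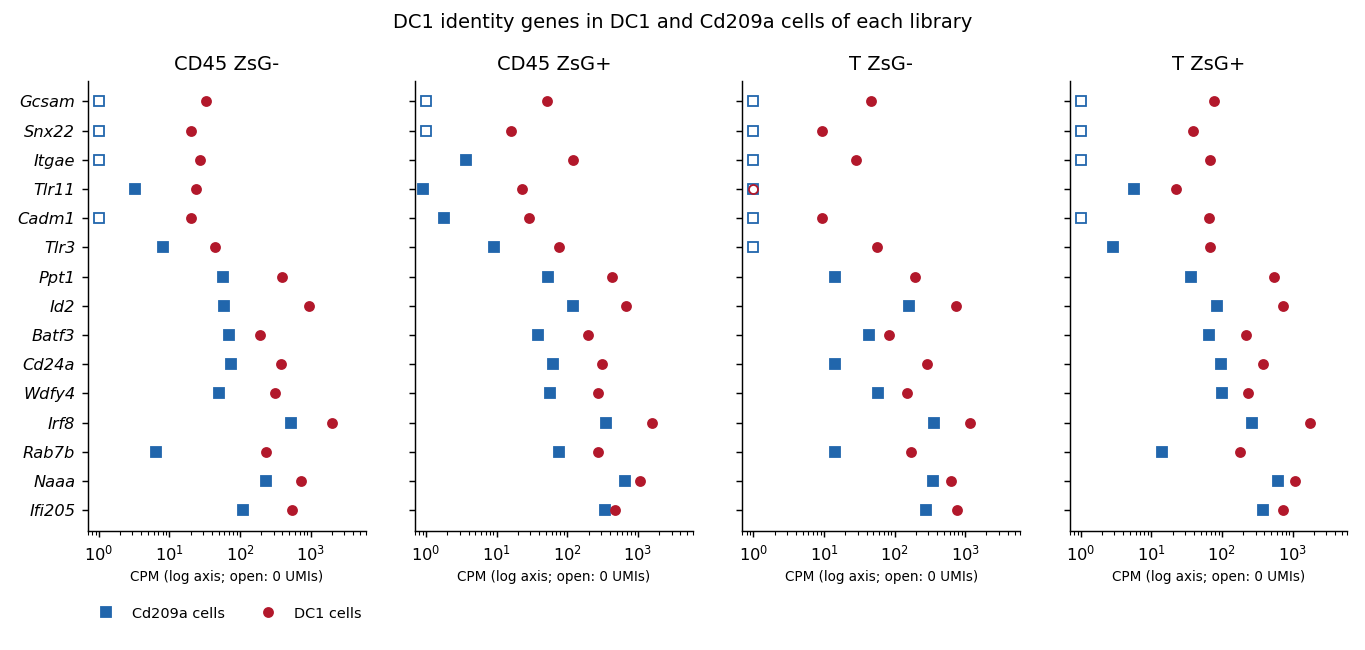
Level in CPM (log axis, open symbols at the left edge for 0 UMIs) of 15 DC1 identity genes in Xcr1/Clec9a cells (DC1 in the key, red circles) and Cd209a cells (blue squares) of the 4 libraries. The Xcr1/Clec9a cells lie to the right for Irf8, Batf3, Id2 and Wdfy4 in all 4 libraries, and the 2 groups come close for Naaa and Ifi205 in the CD45 ZsG-positive library (1059 against 666 CPM and 471 against 339.7 CPM).

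DC2 identity genes were lower in 11 of 13 members, with a median log2 ratio of -1.97, in the CD45 ZsG-positive library. They were lower in 11 of 12 in the CD45 ZsG-negative library (median -1.82) and in 10 of 12 in the TCRβ ZsG-positive library (-2.77). In the TCRβ ZsG-negative library 2 of 5 were lower and 1, Ifitm1, higher, and the list summed to 4071 CPM in the Xcr1/Clec9a cells against 3698 CPM. Clec10a, a galactose-type lectin of DC2, stood at 88.2 against 362 CPM in the CD45 ZsG-positive library (log2 ratio -2.04) and Mgl2, its paralog, at 82.9 against 409.6 CPM (-2.30, -2.60 to -2.02). Irf4, the transcription factor of DC2, stood at 5.35 against 21.8 CPM (-1.97) and Sirpa, the receptor for CD47, at 62.1 against 126 CPM (-1.02). Clec10a and Mgl2 are near-identical in part, so their reads could be split between them. With the 60 cells that carried both Xcr1 and Clec9a, 12 of 12 measured members were lower, with a median of -3.62.

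Genes of other myeloid cells were present in the Xcr1/Clec9a cells. Monocyte genes were lower in 5 of 12 members (median -0.87), with a summed level of 4729.8 against 7748 CPM, and macrophage genes in 3 of 8 (median -0.37), with 607 against 880.1 CPM, in the CD45 ZsG-positive library. In the cells with both genes, 11 of 12 monocyte genes and 8 of 8 macrophage genes were lower than in Cd209a cells, with medians of -2.26 and -2.19. In the CD45 ZsG-negative, TCRβ ZsG-negative and TCRβ ZsG-positive libraries, 6 of 10, 2 of 6 and 2 of 8 monocyte genes were lower and 1, 1 and 0 higher, and 3 of 4, 1 of 1 and 1 of 3 macrophage genes were lower. pDC genes summed to 738 against 1006 CPM, with 1 of 5 measured members higher and a median of -0.56, and in the same 3 libraries 1 of 5, 1 of 3 and 3 of 7 were higher and 0, 1 and 2 lower. With the cells that carried both genes, 3 of 5 pDC genes were lower and 1 higher (-1.04) in the CD45 ZsG-positive library. In the same 3 libraries 2 of 4, 1 of 3 and 3 of 5 were then lower and 0, 1 and 1 higher. There 11, 2 and 26 cells carried both genes. The share over all genes is not given for these 3 comparisons, so the counts are a description only. Over all cells of the CD45 ZsG-positive library, T cell genes outside the rule summed to 14.7 against 25.4 CPM with 3 of 12 at 0 and NK cell genes to 281 against 293 CPM. B cell genes summed to 139 against 119 CPM, neutrophil genes to 7.35 against 10.9 CPM and melanocyte pigment genes to 6.68 against 6.36 CPM. The part of captured RNA from other cells in these levels was not tested.

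In the CD45 ZsG-positive library, antigen presentation differed little between the 2 kinds of cell. None of 14 MHC class I presentation genes was called (median 0.05), and H2-K1, a class I heavy chain, stood at 1531 against 1605 CPM. Psmb9, a subunit of the immunoproteasome, stood at 684, 737, 743 and 930.0 CPM in the Xcr1/Clec9a cells of the CD45 ZsG-negative, CD45 ZsG-positive, TCRβ ZsG-negative and TCRβ ZsG-positive libraries and at 351, 453, 377 and 390.3 CPM in the Cd209a cells. Its groups did not overlap, and the log2 ratio was 0.70 in the CD45 and 1.25 in the TCRβ ZsG-positive library. None of 12 MHC class II genes was called either (median 0.01): Cd74, the invariant chain, stood at 13662 against 13053 CPM and H2-Aa, a class II chain, at 6801 against 6691 CPM. H2-DMb2, a chain of the class II peptide exchanger, stood at 125 against 246 CPM (log2 ratio -0.98, and -1.86 in the TCRβ ZsG-positive library). In the cross-presentation list 1 of 14 genes, Wdfy4, was higher (median -0.07), while Rab43, a GTPase of that pathway, stood at 242 against 123 CPM (0.98) and Cybb, a subunit of the phagocyte NADPH oxidase, at 213 against 401 CPM (-0.91). With the 60 cells that carried both genes, 0 of 14 MHC class I genes was called, 1 of 12 MHC class II genes was higher and 1 lower, and 2 of 14 cross-presentation genes were higher and 4 lower (median -0.27). More was called in the other libraries, taken in the order CD45 ZsG-negative, TCRβ ZsG-negative and TCRβ ZsG-positive. MHC class I genes were higher in 0 of 14, 3 of 12 and 2 of 13 members and lower in 0, 0 and 1. Class II genes were higher in 2 of 12, 1 of 9 and 1 of 12 and lower in 1 each, and cross-presentation genes higher in 2 of 14, 0 of 7 and 2 of 13 and lower in 2, 1 and 2.

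Cst3, which encodes the cathepsin inhibitor cystatin C, was the only called gene of the 17 of the lysosome and cathepsin list in the CD45 ZsG-positive library (median -0.34). Cst3 stood at 18477, 22725, 23571 and 24723 CPM in the Xcr1/Clec9a cells of the CD45 ZsG-negative, CD45 ZsG-positive, TCRβ ZsG-negative and TCRβ ZsG-positive libraries, against 4068, 8174, 3321 and 6904 CPM in the Cd209a cells. The groups did not overlap. With the 60 cells that carried both genes, 1 gene of this list was higher and 11 were lower, and in the CD45 ZsG-negative, TCRβ ZsG-negative and TCRβ ZsG-positive libraries 1 of 16, 2 of 13 and 1 of 16 were higher and 4, 3 and 1 lower.

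Among sensors and receptors, a few members were higher and most were not called. Of 10 measured Toll-like receptor genes, Tlr3 and Tlr11 were higher and Tlr2, a sensor of bacterial lipoproteins, lower (45.4 against 91.7 CPM, log2 ratio -1.01) in the CD45 ZsG-positive library. Tlr11 rested on 34 UMIs against 1 (22.7 against 0.908 CPM, log2 ratio 4.08, 2.07 to 9.99). Of 18 chemokine and growth factor receptors, 3 were higher and 3 lower (median -0.37). Flt3, the receptor of the growth factor that sustains DC, stood at 53.5 against 19.98 CPM (log2 ratio 1.40) and Cxcr3, the receptor for CXCL9 and CXCL10, at 35.4 CPM against 0 UMIs (at least 13-fold higher). Csf1r (40.8 against 88.1 CPM, log2 ratio -1.11), Ccr1 (60.8 against 137 CPM, -1.17) and Tgfbr2 (14.7 against 32.7 CPM, -1.14) were lower. Ccr7, which guides mature DC to lymph nodes, was called higher (19.4 against 2.72 CPM), yet 24 of its 29 UMIs lay in 1 cell. With the 60 cells that carried both genes, 2 of 8 Toll-like receptor genes were higher and 2 lower, and of 16 chemokine and growth factor receptors 2 were higher and 5 lower (median -0.61). In the CD45 ZsG-negative, TCRβ ZsG-negative and TCRβ ZsG-positive libraries, 0 of 3, 0 of 2 and 1 of 4 Toll-like receptor genes were higher and 1, 0 and 1 lower, and 1 of 15, 1 of 6 and 2 of 16 of these other receptors were higher and 3, 1 and 4 lower.

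In the CD45 ZsG-positive library most costimulatory and uptake genes were not called, with a few higher or lower. Among 14 costimulators and checkpoint ligands, 1 was higher and 2 were lower (median -0.28), and Tnfsf9, the ligand of 4-1BB, stood at 34.1 against 85.4 CPM (log2 ratio -1.32). Cd86 stood at 185 against 215 CPM and Cd40 at 50.8 against 101 CPM, neither past 2-fold. Among 14 uptake and lectin receptors, 2 were higher and 4 lower (median -0.60): Ly75, which encodes DEC-205, stood at 22.1 against 4.54 CPM (2.16, 0.91 to 3.99) and Cd36, a scavenger receptor, at 77.5 against 31.8 CPM (1.27, 0.73 to 1.87). Both were also higher in the TCRβ ZsG-positive library (1.42 and 1.76). None of 6 Fc receptor genes was called (median -0.63), and in the DC maturation list 2 of 15 were higher and 2 lower (median -0.28). With the 60 cells that carried both Xcr1 and Clec9a, where 9.79% of all genes were lower, 5 of 6 Fc receptor genes were lower (median -1.74), as were 9 of 14 uptake and lectin receptors, with 2 higher (-1.83), 6 of 14 costimulators, with 1 higher (-0.93), and 6 of 12 DC maturation genes, with 1 higher (-1.15). The CD45 ZsG-negative library had 4 of 6 Fc receptor genes, 5 of 7 uptake receptors, 3 of 11 costimulators and 6 of 11 DC maturation genes lower, with 1 uptake receptor higher. The TCRβ ZsG-positive library had 3 of 6, 4 of 9, 5 of 13 and 3 of 16 lower and 0, 2, 1 and 2 higher, and the TCRβ ZsG-negative library 0 of 2, 1 of 2, 0 of 4 and 0 of 4 lower and 0, 0, 1 and 2 higher.

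More chemokine genes were lower than higher in the CD45 ZsG-positive library, and some of them rested on single cells. Of 18 measured chemokine and cytokine genes, 1 was higher and 4 were lower in the CD45 ZsG-positive library (median -0.47), and with the 60 cells that carried both genes 1 of 17 was higher and 10 were lower (-1.30). In the CD45 ZsG-negative library 10 of 15 were lower (median -2.34 with genes at 0 UMIs set to their bound) and in the TCRβ ZsG-negative library 5 of 8 with 1 higher (-1.81), but in the TCRβ ZsG-positive library 3 of 17 were higher and 3 lower (-0.06). Cxcl10 stood at 278, 466, 197 and 688 CPM in the Xcr1/Clec9a cells of the CD45 ZsG-negative, CD45 ZsG-positive, TCRβ ZsG-negative and TCRβ ZsG-positive libraries and at 3168, 1352, 682 and 1233 CPM in the Cd209a cells, lower within each library and overlapping only through the highest Xcr1/Clec9a and lowest Cd209a values. Ccl17, a ligand of CCR4, stood at 22.1 against 161 CPM in the CD45 ZsG-positive library (log2 ratio -2.85) and at 39.3 against 718 CPM in the TCRβ ZsG-positive library (-4.17). Cxcl9, the other ligand of CXCR3 in the list, stood at 1191 against 1243 CPM (-0.06) and came from 91 of the 103 cells. Ccl5 was the called higher gene, at 476 against 118 CPM, but 635 of its 713 UMIs (89.1%) lay in 1 cell, and without that cell it stood at 52.5 CPM. Il12b, a subunit of IL-12, showed the same in the TCRβ ZsG-positive library, where 50 of 57 UMIs lay in 1 cell.

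Type I interferon response genes were lower in 9 of 14 members of the CD45 ZsG-positive library (median -1.25) and in 4 of 11 of the TCRβ ZsG-positive library (median -0.80). In the CD45 ZsG-negative library 7 of 13 were lower and 1 higher (median -1.04). The TCRβ ZsG-negative library went the other way, with 2 of 8 higher and 0 lower and a sum of 3328 against 2871 CPM, although its median was -0.19. With the 60 cells that carried both genes in the CD45 ZsG-positive library, 11 of 14 were lower (-1.58). Rsad2, which encodes viperin, stood at 36.1 against 158 CPM in the CD45 ZsG-positive library (log2 ratio -2.12) and Ifit3 at 29.4 against 78.1 CPM (-1.40). Isg15, a ubiquitin-like modifier, did not move one way: it stood at 602 against 1023 CPM in the CD45 ZsG-positive library (-0.76) and at 873 against 631 CPM in the TCRβ ZsG-positive library (0.47). Of 14 interferon gamma response genes, 1 was lower (median -0.43) in the CD45 ZsG-positive library, 6 were with the cells that carried both genes (-0.93), and 4 were lower and 1 higher in the CD45 ZsG-negative library (-0.59). In the TCRβ ZsG-negative library 2 of 9 were higher, and in the TCRβ ZsG-positive library 3 of 14 were lower. In the list of immediate early and heat shock genes 3 of 15 were lower (median -0.78), among them Hspa1a, an inducible HSP70 (28.1 against 177 CPM, -2.64). With both genes 6 of 15 were lower (-0.93), and in the CD45 ZsG-negative, TCRβ ZsG-negative and TCRβ ZsG-positive libraries 10 of 14, 3 of 10 and 4 of 15 were. In the glycolysis list 2 of 16 were lower (median 0.08), and with both genes 3 of 16 were (-0.06).

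Cell cycle genes had a higher summed level in the Xcr1/Clec9a cells of the ZsG-positive libraries. All 18 G2M genes summed to 1030 against 520 CPM in the CD45 ZsG-positive library (log2 ratio 0.99, 0.85 to 1.13), with 12 of 18 called higher, and to 1278 against 67.9 CPM in the TCRβ ZsG-positive library (4.21, 3.65 to 4.88). In the latter the Cd209a cells held 24 UMIs over the whole list, and each of the 12 genes measured there passed the minimum through the Xcr1/Clec9a cells alone. S phase genes were higher in 8 of 18 (0.96), in 8 of 15 (1.14) and, in the CD45 ZsG-negative library, in 6 of 6 (2.63). In the CD45 ZsG-positive library, 9 of the 12 higher G2M genes had fewer than 20 UMIs in the Cd209a cells. The same held for 4 of the 8 higher S phase genes there. It held for 8 of 8 in the TCRβ ZsG-positive and 4 of 6 in the CD45 ZsG-negative library. Of the 139 G2M UMIs of that library, 87 lay in 1 of the 25 cells, and without that cell G2M genes stood at 192 against 108 CPM (log2 ratio 0.83, in place of 2.10) and S phase genes at 723 against 170 CPM (2.09). In the TCRβ ZsG-negative library no gene of these lists reached the minimum, and G2M genes summed to 113 against 116 CPM (log2 ratio -0.07, -1.45 to 1.46) and S phase genes to 771 against 189 CPM. Of the 82 S phase UMIs in the 7 Xcr1/Clec9a cells there, 47 lay in 1 cell. Without that cell S phase genes stood at 412 against 189 CPM. Top2a, the topoisomerase of mitotic chromosomes, stood at 124, 184, 0 and 160.3 CPM in the Xcr1/Clec9a cells of the CD45 ZsG-negative, CD45 ZsG-positive, TCRβ ZsG-negative and TCRβ ZsG-positive libraries and at 3.28, 112, 0 and 5.66 CPM in the Cd209a cells. Birc5, which encodes survivin, stood at 118 against 47.2 CPM in the CD45 ZsG-positive library (log2 ratio 1.31) and at 171 against 2.83 CPM in the TCRβ ZsG-positive library (5.34), where the Cd209a cells held 1 UMI of it. Mki67 stood at 134 against 74.5 CPM (0.85) and was carried by 40 of the 103 cells, with 171 of its 201 UMIs in cells that had both Xcr1 and Clec9a. In cells thinned to 5000 UMIs, Mki67 or Top2a had a UMI in 37.3% of Xcr1/Clec9a cells (27.9 to 47.4%, 44.7% unthinned), in 20.2% of Cd209a cells (12.6 to 29.8%, 29.2% unthinned) and in 30.0% of NK-like Ncr1 cells (26.6%) of the CD45 ZsG-positive library. The intervals of the Xcr1/Clec9a and Cd209a shares overlapped.

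**Figure D4:**
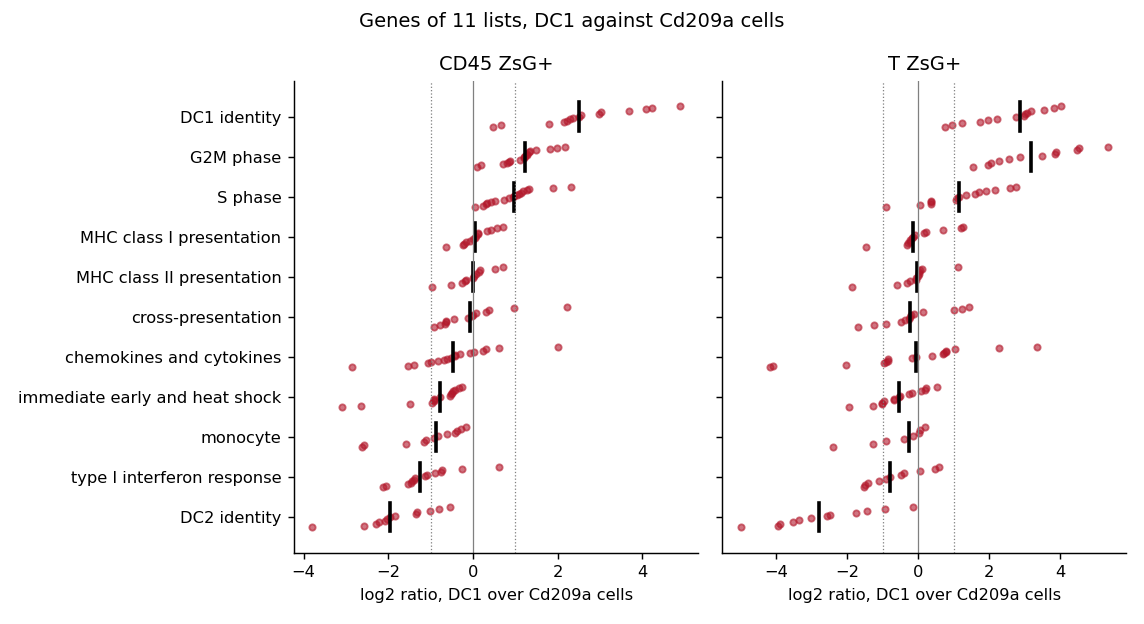
Log2 ratio of Xcr1/Clec9a cells over Cd209a cells for each measured gene of 11 lists (points) in the CD45 ZsG-positive and TCRβ ZsG-positive libraries, with the median (black bar, genes at 0 UMIs set to their bound) and dotted lines at 2-fold. The DC1 identity list lies above the upper line at its median (2.51 and 2.86), DC2 identity below the lower line (-1.97 and -2.77), and both MHC lists lie around 0.

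By size alone, the genes most unlike Cd209a cells included several outside these lists. Among the 12 named as higher by a fixed rule of size, Plpp1, a lipid phosphatase, stood at 37.4 against 0.908 CPM (1 UMI in the Cd209a cells, log2 ratio 4.79, 2.83 to 10.7) in the CD45 ZsG-positive library. Bcl2l14 stood at 51.5 against 3.63 CPM (3.66, 2.41 to 5.74), Slc8b1, the mitochondrial sodium/calcium exchanger, at 66.8 against 5.45 CPM (3.51, 2.44 to 5.10) and Ffar4, a receptor for long-chain fatty acids, at 36.8 against 2.72 CPM (3.54, 2.13 to 6.07). The rule kept a gene only if its sign was the same wherever else it was measured, so the signs in other libraries add no support, and only the sizes are given. In the TCRβ ZsG-positive library Plpp1 was at least 3.56-fold higher against 0 UMIs, and the log2 ratios of Bcl2l14, Slc8b1 and Ffar4 were 3.43, 3.22 and 1.42. Rasgrp3 (18.7 against 0.908 CPM, 3.81, 1.77 to 9.72), Cystm1 (16.7 against 0.908 CPM, 3.64, 1.59 to 9.56) and Cacna1s (27.4 against 1.82 CPM, 3.61, 1.97 to 7.01) rested on 1 or 2 UMIs in the Cd209a cells. Gcsam, Cxcr3, Itgae, Tlr11 and Cadm1 completed the 12.

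The genes named as lower were led by Cdh1, which encodes E-cadherin (0.668 against 30.9 CPM in the CD45 ZsG-positive library, 1 UMI in the Xcr1/Clec9a cells, log2 ratio -4.97, -10.9 to -2.95). Cd209d, a paralog of Cd209a that may share reads with it, stood at 8.02 against 115 CPM (-3.79) and Cd7, a surface glycoprotein of lymphocytes, at 6.01 against 58.1 CPM (-3.21). Tnfrsf12a, the receptor of TWEAK, stood at 10.7 against 54.5 CPM (-2.32) and Tmem176a at 16.7 against 79.0 CPM (-2.22), with log2 ratios of -3.02 and -2.80 in the CD45 ZsG-negative and -3.52 and -1.43 in the TCRβ ZsG-positive library, whose sign the rule had fixed. Hs3st3b1 (-2.67), Arap2 (-2.55), Rtn1 (-2.38) and Ank (-2.20) followed, with Hspa1a and Mgl2 described above.

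In the CD45 sort, ZsG-positive and ZsG-negative Xcr1/Clec9a cells had similar levels of DC1 identity genes, while macrophage genes were higher in the ZsG-positive cells. There, 103 ZsG-positive cells were set against 25 ZsG-negative cells, and 362 of 6657 genes (5.44%) were higher and 259 (3.89%) lower, with a median log2 ratio over all genes of -0.05. Of the 362, 324 had fewer than 20 UMIs in the 25 ZsG-negative cells and were measured only through the ZsG-positive ones, as against 50 of the 259. In the TCRβ sort, 39 were set against 7 cells, and 145 of 4087 genes (3.55%) were higher and 216 (5.29%) lower, with a median of -0.10. That TCRβ split depends on the scaling: it was 238 higher and 123 lower with TMM and 235 and 126 with median-of-ratios, which shift the log2 ratios by 0.24 and 0.23. In the CD45 sort these scalings shift them by 0.11 and 0.10. Of the 362 genes higher in the CD45 sort, 206 were measured in the TCRβ sort, and 113 (54.9%) had the same sign there, where 43.6% of all measured genes had it. Of the 259 lower genes, 153 were measured there and 103 (67.3%) had the same sign, against 56.4% of all measured genes, all under the library order stated above. In the TCRβ sort, 139 of the 145 higher and 47 of the 216 lower genes had fewer than 20 UMIs in the lower group. The minimum can thus favor the same sign here too.

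The DC1 identity list summed to 5598 against 5922 CPM in the CD45 sort and to 6224 against 4344 CPM in the TCRβ sort (log2 ratio 0.52, 0.38 to 0.66). It had 1 of 15 members higher, Itgae (121 against 26.8 CPM, log2 ratio 2.09), and a median of 0.01 in the CD45 sort. Irf8 stood at 1567 CPM in the ZsG-positive and 2009 in the ZsG-negative cells (-0.36), Batf3 at 197 and 194 CPM (0.01), Id2 at 689 and 949 CPM (-0.46) and Wdfy4 at 270.0 and 315 CPM (-0.23). None of 14 MHC class I genes (median 0.27) and none of 14 cross-presentation genes (-0.09) was called, and H2-DMb2 was the 1 of 12 MHC class II genes that was higher (125 against 33.5 CPM, 1.83). In the TCRβ sort 3 of 14 DC1 identity genes were higher (median 0.60), Batf3 among them (221 against 84.6 CPM, 1.31). With the cells that carried both genes, none of 13 was called in the TCRβ sort and the median was -0.06, and 2 of 15 were higher in the CD45 sort with a median of -0.12. In these comparisons 3.25% of 5081 genes were higher and 2.78% lower in the CD45 sort, and 2.95% of 3056 higher and 4.32% lower in the TCRβ sort.

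The genes named as higher in ZsG-positive cells of the CD45 sort included chemokine genes, Lpl, Apoe and Mgl2, the last a member of the DC2 list. Cxcl2, a ligand of CXCR2, had 729 UMIs in 58 of the 103 ZsG-positive cells and 0 in the 25 ZsG-negative cells, at least 48.4-fold higher at a floor of 3 UMIs. Ccl7 had 552 UMIs against 0 (at least 36.7-fold higher), Ccl12 237 against 0 (at least 15.7-fold higher) and Ccl2, which like them binds CCR2, 725 against 2 (484 against 6.71 CPM, log2 ratio 5.85, 4.32 to 9.22). Lpl, lipoprotein lipase, had 497 UMIs against 0 (at least 33.0-fold higher) and Apoe, a lipoprotein of macrophages, 266 against 0 (at least 17.7-fold higher). Mgl2 had 124 UMIs against 0 (at least 8.24-fold higher).

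The same genes differed between the NK-like Ncr1 cells of these libraries. From the CD45 ZsG-negative to the ZsG-positive library, Ncr1 cells had 12.9 and 688 CPM of Cxcl2, 1.44 and 1094 CPM of Ccl7, 4.86 and 1248 CPM of Ccl2, 0.442 and 336 CPM of Lpl and 43.9 and 688 CPM of Apoe. Of the genes named here, Mgl2 was the one that stayed low there, at 0.221 and 5.66 CPM against 82.9 CPM in the ZsG-positive Xcr1/Clec9a cells. Macrophage genes summed to 607 CPM in the ZsG-positive and 158 CPM in the ZsG-negative Xcr1/Clec9a cells, where 7 of 10 were at 0. Within the ZsG-positive cells, 44 of the 497 Lpl UMIs and 33 of the 266 Apoe UMIs lay in the 60 cells with both Xcr1 and Clec9a, as against 220 of the 729 Cxcl2 and 256 of the 552 Ccl7 UMIs. In the TCRβ ZsG-positive library, 198 of 206 Cxcl2 UMIs and 189 of 200 Ccl2 UMIs lay in 1 cell. The part of free RNA or of attached macrophages in these differences was not tested.

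**Figure D5:**
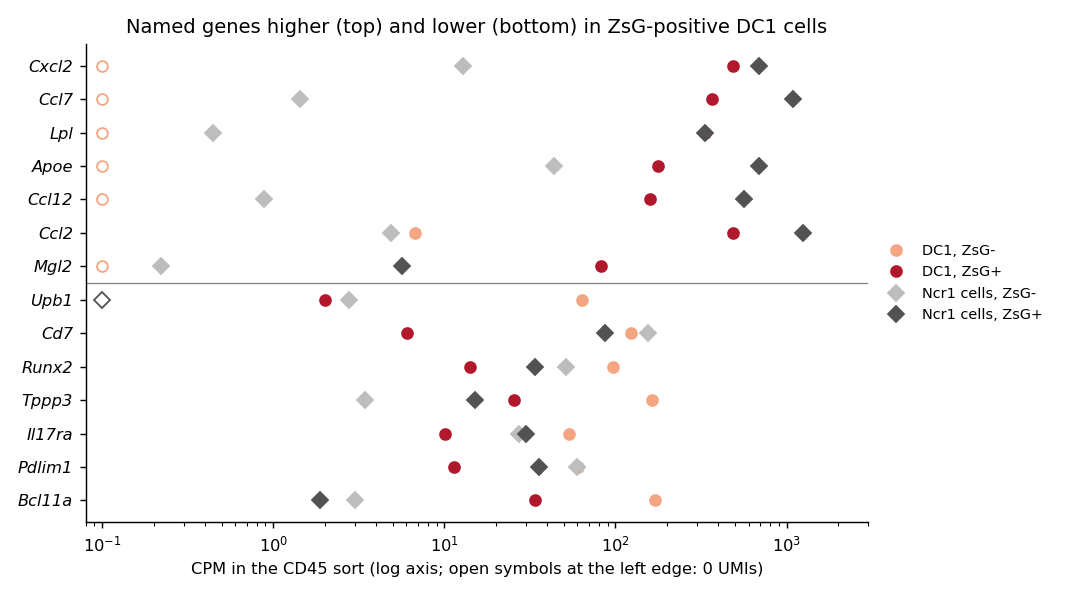
Level in CPM (log axis, open symbols at the left edge for 0 UMIs) in the CD45 sort of 7 genes named as higher (top) and 7 named as lower (bottom) in ZsG-positive Xcr1/Clec9a cells (DC1 in the key), with the NK-like Ncr1 cells of the same libraries. The higher genes rise from at most 6.71 CPM to between 82.9 and 487 CPM in the Xcr1/Clec9a cells, and all of them but Mgl2 also lie far to the right in the ZsG-positive Ncr1 cells, where Lpl covers the Xcr1/Clec9a point (336 and 332 CPM).

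Summed over all members, several lists were higher in the ZsG-positive cells of the CD45 sort. Macrophage genes stood at 607 against 158 CPM (log2 ratio 1.93, 1.52 to 2.40), G2M genes at 1030 against 466 CPM (1.14), glycolysis and hypoxia genes at 6157 against 3058 CPM (1.01) and DC maturation genes at 1283 against 731 CPM (0.81). Fc receptors stood at 2122 against 1412 CPM (0.59), chemokines and cytokines at 5427 against 3642 CPM (0.58) and uptake and lectin receptors at 836 against 570.1 CPM (0.55). Between gates the uptake list also held Cd209a, and without Cd209a it stood at 791 against 352 CPM. The G2M level of the ZsG-negative cells was 192 CPM without the cell named above. By gene, macrophage genes were called higher in 7 of 8 measured members (median 1.76, here and next with genes at 0 UMIs set to their bound). Chemokines and cytokines were higher in 10 of 17 (1.54), Fc receptors in 4 of 6 (1.35) and DC maturation genes in 4 of 13 (0.24). Uptake and lectin receptors were higher in 9 of 15 (1.82), and the 1 lower was Cd209a. Monocyte genes were higher in 6 of 11 with 1 lower (1.44), although they summed to 4729.8 against 5104 CPM (log2 ratio -0.11, -0.19 to -0.03). Each of the macrophage, chemokine, uptake, DC maturation and G2M genes called higher had fewer than 20 UMIs in the ZsG-negative cells. These counts therefore describe genes admitted by their level in the ZsG-positive cells. Lyz2 stood at 1860.4 against 329 CPM (log2 ratio 2.49) and Fcgr3, an activating Fc receptor chain, at 134 against 3.35 CPM, where the ZsG-negative cells held 1 UMI (4.74). Glycolysis and hypoxia genes were higher in 7 of 16 (0.82), with Tpi1 at 456 against 124 CPM (1.86), Pkm at 679 against 225 CPM (1.59) and Aldoa at 464 against 168 CPM (1.45). G2M genes were higher in 10 of 18 (1.45), with Birc5 at 118 against 33.5 CPM (1.75), whereas 1 of 17 S phase genes was (-0.04). Cxcl9 stood at 1191 against 1023 CPM (0.22), and among type I interferon response genes 2 of 13 were higher (-0.21), or 3 of 10 with both genes (0.17), while 6 of 11 were lower in the TCRβ sort (-1.05). The lysosome and cathepsin list had 6 of 17 higher (0.80). Melanocyte pigment genes had 10 UMIs against 0, with no member measured and an interval of the log2 ratio that began at -1.16.

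Fewer genes of these lists were called once only cells with both Xcr1 and Clec9a were compared, 60 ZsG-positive against 11 ZsG-negative cells. Higher calls over all genes were fewer as well, 165 in place of 362 (3.25 and 5.44%). Macrophage genes were then higher in 1 of 2 measured members (median 0.63, here and next with genes at 0 UMIs set to their bound), chemokines and cytokines in 5 of 15 (0.82), uptake and lectin receptors in 0 of 6 (0.43), Fc receptors in 3 of 6 (0.73), monocyte genes in 2 of 7 with 1 lower (0.51) and G2M genes in 3 of 17 (0.85). None of 8 DC maturation genes was called (-0.13). Glycolysis genes were lower in 1 of 14 and higher in 4, namely Aldoa (log2 ratio 1.45), Pgk1 (1.19), Pkm (1.04) and Tpi1 (1.02). Ccl2 was still higher, with 282 UMIs against 2 (4.29), and Cxcl2 and Ccl7 had 220 and 256 UMIs against 0. Over all cells of the TCRβ sort, none of 13 glycolysis genes was called (median -0.09), nor was the 1 measured macrophage gene. Of 13 DC maturation genes in that sort, 2 were higher and 2 lower. There 2 of 6 uptake receptors were higher and 1 lower, 0 of 5 Fc receptors were higher and 1 lower, and 1 of 7 monocyte genes was higher and 2 lower, while 5 of 16 chemokines and cytokines were higher and 1 lower (0.36 at the bound), and 10 of 12 G2M genes were higher (1.94 at the bound), where the ZsG-negative cells held 12 UMIs over the whole G2M list. With both genes, 26 against 2 cells of that sort, 6 of 12 G2M genes were higher (0.23 at the bound), 1 of 8 chemokines and cytokines was higher and 2 lower, 1 of 3 uptake receptors and 1 of 5 monocyte genes were higher, and 2 of 2 Fc receptors, 2 of 5 monocyte genes and 1 of 11 glycolysis genes were lower.

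Genes named as lower in ZsG-positive cells of the CD45 sort were led by Upb1 (3 UMIs against 19, 2.00 against 63.7 CPM, log2 ratio -4.81, -7.39 to -3.23), an enzyme of pyrimidine breakdown, and Cd7 (6.01 against 124 CPM, -4.31). Runx2, a transcription factor of pDC, stood at 14 against 97.2 CPM (-2.78) and Bcl11a, a transcription factor of pDC and their precursors, at 34.1 against 171 CPM (-2.33). Tppp3 (25.4 against 164 CPM, -2.69), Il17ra (-2.42) and Pdlim1 (-2.41) were also lower. In the TCRβ sort, where the rule had fixed the sign, Cd7 stood at a log2 ratio of -2.64 and Bcl11a at -0.80. Of these genes, Upb1, Bcl11a and Runx2 stood at 0, 1.89 and 33.9 CPM in the ZsG-positive Ncr1 cells and at 2.76, 2.98 and 51.7 CPM in the ZsG-negative ones. Cd7 and Pdlim1 stood at 86.7 and 35.8 CPM in the ZsG-positive Ncr1 cells and at 154.5 and 59.2 CPM in the ZsG-negative ones. Tppp3 was higher in the ZsG-positive Ncr1 cells (15.1 against 3.43 CPM), and Il17ra stood at 30.2 against 27.3 CPM.

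pDC genes moved the same way, with 4 of 6 measured members lower and 1 higher (median -1.68) and a summed level of 738 against 1707 CPM. Of 6 measured in the TCRβ sort, 1 was lower and 1 higher (median 0.37), with a sum of 1334 against 2087 CPM. Ly6d stood at 4.68 against 104 CPM (-4.40), Tcf4 at 47.4 against 208 CPM (-2.13) and Bst2 at 396 against 929 CPM (-1.23), while Plac8, of the monocyte list but also abundant in pDC, stood at 1065 against 2927 CPM (-1.46). Tcf4, Bst2 and Plac8 were also among the genes given above as high in the Clec9a-only cells of the ZsG-negative library. Among the cells with both Xcr1 and Clec9a, none of 4 measured pDC genes was lower and 1 was higher (median -0.66), and the log2 ratio of Runx2 was -0.21, while Tppp3 (-2.73) and Bcl11a (-1.31) were still lower. The part of Clec9a-only cells in the summed difference was not tested in any other way.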

How the data were processed

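The deposited files hold raw UMI counts per gene and cell barcode, as the authors' Cell Ranger runs wrote them (version 6.1.2 per the labels, with 7.0.0 in the header of the CD45 matrix and 6.1.2 in that of the TCRβ matrix), aligned to mm10. They list 32285 and 31053 genes, and the sources used here do not say whether the joint matrices were evened in depth. The 4 libraries held 47537541, 56510578, 10030971 and 22100220 UMIs in 5437, 5168, 1136 and 2396 barcodes (CD45 ZsG-negative, CD45 ZsG-positive, TCRβ ZsG-negative, TCRβ ZsG-positive). Kept cells had at least 1000 and fewer than 6000 genes and under 10% mitochondrial UMIs in the CD45 sort, and at least 50 and fewer than 6000 genes and under 15% in the TCRβ sort, which left 4699, 4123, 948 and 1879. No doublet caller was run. The members, the 28 gene lists and the named-gene rule were chosen with earlier results of these data known.

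Each group's UMIs were summed, and ratios had exact conditional intervals with 0.5 UMIs added for the estimate. Shares had exact Clopper-Pearson intervals. Genes were measured at 20 UMIs over both groups and called at 2-fold with the interval beyond 0. Named genes were the 12 largest ratios each way against Cd209a cells in the CD45 ZsG-positive library, and the 8 largest each way between ZsG-positive and ZsG-negative cells of the CD45 sort. At least 20% of the higher group's cells had to hold a UMI and the direction had to be the same wherever else they were measured, without rule genes, mitochondrial and ribosomal protein genes or unnamed gene models, and 3 genes that met the rule are not reported here. Genes were compared in the TCRβ sort only where both matrices list them, which left out Ifi30 and Mx1; neither lists Clec7a. Alternatives changed the scaling, the UMI minimum, the rule, its exclusions and the mitochondrial limit. The scripts were tested on simulated data. Python 3.11.15 with numpy 2.4.6, scipy 1.17.1, pandas 2.3.3 and matplotlib 3.10.9 was used, and R 4.3.3 with edgeR 4.0.16 for TMM factors alone. With 1 library per gate no count model was fitted.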

Additional observations from a re-analysis of the deposited data

Results flagged for a closer look

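For 7 lists the summed UMIs of Xcr1/Clec9a cells pointed opposite ways between ZsG-positive and ZsG-negative cells in the 2 sorts, with the counting interval of each sort wholly beyond equal levels, and the difference between the sorts was not tested. The log2 ratio of ZsG-positive over ZsG-negative was -0.0815 in the CD45 and 0.52 in the TCRβ sort for DC1 identity genes, 0.31 and -3.04 for DC2 identity genes, and 0.59 and -0.85 for Fc receptors. It was 0.37 and -0.31 for MHC class I presentation, 0.34 and -0.0840 for MHC class II presentation, 0.31 and -0.38 for cross-presentation, and 0.24 and -0.0691 for pan-DC genes. With TMM scaling 2 of these lists, DC2 identity and Fc receptors, still met this, and with median-of-ratios scaling MHC class I presentation did as well, 3 in all. The TCRβ ZsG-negative library held 7 such cells. Of the DC2 genes there, Ifitm1 alone had 385 UMIs, 187 of them in 1 cell. The ZsG gates of the 2 sorts may differ, as stated above. The order of the TCRβ libraries is also contradicted within the labels, and with the other order each TCRβ sign turns around.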

How the results depend on the processing

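The share of Xcr1/Clec9a cells moved with the rule. At 3 UMIs of the pair it was 0.319 and 1.75% in the CD45 ZsG-negative and ZsG-positive libraries and 1.44% in the TCRβ ZsG-positive library. With a UMI of both genes it was 0.234, 1.46, 0.211 and 1.38% in the order CD45 ZsG-negative, CD45 ZsG-positive, TCRβ ZsG-negative and TCRβ ZsG-positive, and without the exclusions 1.30, 4.75, 3.90 and 7.72%. Among cells with at least 3000 UMIs, thinned to 3000, it was 0.115, 1.17 and, in TCRβ ZsG-positive cells, 1.02%, with a CD45 log2 ratio of 3.34. A 5% mitochondrial limit gave 3.41% of TCRβ ZsG-positive cells. The share stayed higher in ZsG-positive cells under each of these settings. Against Cd209a cells of the CD45 ZsG-positive library, a minimum of 100 UMIs gave 77 higher and 136 lower genes (2 S phase and 3 G2M genes higher), since fewer genes were tested. There, 3 UMIs of the pair gave 567 lower genes (10 monocyte and 7 immediate early genes), and both genes gave 675 (11 and 6). In the TCRβ ZsG-positive library it was 79 higher and 74 lower at 100 UMIs, and 640 lower at a minimum of 1 UMI and 629 lower with Cd209a cells taken without exclusions. Between ZsG-positive and ZsG-negative cells of the CD45 sort, 100 UMIs gave 146 higher and 59 lower (1 macrophage, 1 uptake and 3 G2M genes higher, 2 pDC genes lower). At 3 UMIs of the pair 234 were higher (5 uptake, 2 Fc receptor and 6 G2M genes), and with both genes 165 were higher and 141 lower (1 macrophage, 5 chemokine, 0 uptake, 4 glycolysis, 3 G2M and 2 monocyte genes higher, 0 pDC genes lower). In the TCRβ sort, the counts were 238 and 123 with TMM, 235 and 126 with median-of-ratios, 46 and 40 at 100 UMIs, 352 lower at 1 UMI, and 90 and 132 with both genes. Both-gene comparisons of genes and lists, and median-of-ratios scaling of lists, were chosen after seeing the data. In all, 58 main values moved, as given above, and 161 stayed within their limits, and of the other values 48 moved and 365 stayed, and no log2 ratio of a share or of a named gene changed sign under these settings. List medians changed sign with TMM scaling in 0 of 26 lists against Cd209a cells of the CD45 ZsG-positive library, 4 of 26 in CD45 ZsG-negative, 4 of 25 in TCRβ ZsG-positive (pan-DC -0.11 to 0.04, DC maturation -0.11 to 0.04, chemokines -0.06 to 0.09, MHC class II -0.03 to 0.12) and 2 of 23 in TCRβ ZsG-negative cells, and between gates in 3 of 25 in the CD45 sort (cross-presentation -0.09 to 0.02, S phase -0.04 to 0.07, NK cell genes -0.05 to 0.06) and 5 of 25 in the TCRβ sort (DC2 -0.20 to 0.03, MHC class II -0.13 to 0.11, glycolysis -0.09 to 0.15, costimulators -0.01 to 0.23, NK cell genes -0.20 to 0.04). They also did with both genes: 3 of 25 against Cd209a cells of the CD45 ZsG-positive library (Toll-like receptors 0.08 to -0.17, glycolysis 0.08 to -0.06, NK cell genes -0.80 to 0.13), 6 of 25 between gates of the CD45 sort (DC1 identity 0.01 to -0.12, DC maturation 0.24 to -0.13, costimulators 0.02 to -0.19, type I interferon -0.21 to 0.17, interferon gamma 0.03 to -0.25, NK cell genes -0.05 to 0.82) and 5 of 25 in the TCRβ sort (DC1 identity 0.60 to -0.06, pDC 0.37 to -0.71, Fc receptors 0.10 to -1.84, and macrophage and B cell lists of 1 measured gene). Against Cd209a cells of the other libraries, 5 of 25 did in TCRβ ZsG-positive cells (pDC 0.58 to -1.20, Toll-like receptors 0.13 to -0.04, glycolysis 0.03 to -0.08, MHC class II -0.03 to 0.04, B cell genes 0.03 to -0.04), 4 of 26 in CD45 ZsG-negative cells (pDC 0.30 to -1.63, Toll-like receptors 0.14 to -0.30, MHC class II -0.13 to 0.13, cross-presentation 0.02 to -0.09) and 5 of 22 in TCRβ ZsG-negative cells, where 2 cells carried both genes (type I interferon -0.19 to 0.86, cross-presentation 0.40 to -0.41, DC maturation 0.47 to -0.23, pan-DC -0.05 to 0.67, chemokine and growth factor receptors 0.52 to -2.67). Where no cause is given above, the cause was not tested. No paired analysis was possible because each gate was 1 library. With 7 and 25 ZsG-negative Xcr1/Clec9a cells, depth limits every comparison between gates to abundant genes or large differences.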

Other observations

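Transcripts of Xcl1, which encodes the ligand of XCR1, lay in other cells. Xcl1 stood at 1231, 553, 762 and 1306 CPM in the NK-like Ncr1 cells of the CD45 ZsG-negative, CD45 ZsG-positive, TCRβ ZsG-negative and TCRβ ZsG-positive libraries, and at 0, 1.34, 0 and 3.02 CPM in the Xcr1/Clec9a cells of the same libraries. The NK-like cells had no UMI of Xcr1 in any of the 4 libraries, where the Xcr1/Clec9a cells, chosen in part on this gene, had 148, 302, 47.0 and 256 CPM.

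Between 1 and 8 Xcr1/Clec9a cells per library, 16 in all, also had at least 3 UMIs of Cd209a, and they were counted as Xcr1/Clec9a cells.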
